A study of Mus musculus with 20 samples.

Results

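The genes described are 10 mouse genes of inflammatory cytokine signalling and of the inflammasome: Tnf, Il1b, Il1rn, Il6, Il10, Il18, Tgfb1, Nlrp3, Casp1 and Pycard. They were taken by gene name from the 37074 names on the array, and 17 probes carry them. Expression was measured in epididymal fat, a visceral adipose tissue (VAT), of 20 male third-generation (F3) C57BL/6J mice, with 1 Agilent 1-colour array per mouse. The Ref group (6 mice) came from the control lineage, whose growing diet was supplemented over the generations with sunflower oil rich in oleic acid, and was then fed a low-fat standard diet. The HFoleic group (6 mice) came from the same control lineage and was fed a high-fat, high-sucrose diet. The HFepa group (8 mice) came from the lineage whose growing diet held a fish oil with much EPA (eicosapentaenoic acid, an omega 3 fatty acid), and received the same high-fat diet. Lineage and diet were not crossed, since no EPA lineage on the standard diet was arrayed, and only RNA that passed an integrity limit was hybridized. All mice were sampled in the same way and the labels place all arrays in 1 wash batch, over 3 slides that each hold mice of every group.

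Obese visceral fat is known for a low-grade inflammation in which macrophages gather around enlarged adipocytes. In the IL-1 arm, a first signal through NF-kappaB raises transcription of Il1b and Nlrp3, and a second signal lets the sensor NLRP3 recruit the adaptor ASC, encoded by Pycard, and the protease caspase-1, which cuts the precursors of IL-1beta and IL-18 into their secreted forms. Cutting and secretion are not seen in RNA. Il1rn encodes the IL-1 receptor antagonist, which occupies the IL-1 receptor without signalling. TNF, made by macrophages, and IL-6, made by several cell types of fat, are cytokines raised in obesity, while IL-10 and TGF-beta1 restrain inflammation, the latter also driving matrix deposition.

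The stretches of DNA before the starts of Il1rn, Pycard, Casp1 and Il1b are shown because the first 3 of these genes correlated closely over the mice and Il1b did not correlate with them. They are the 250 bases before the annotated start in RefSeq (build GRCm38.p6), 5′ to 3′ on the strand of the gene, and 2 starts that do not overlap are given for Il1rn. Capitals mark matches, on either strand, to the NF-kappaB consensus or to the letters TGANTCA (AP-1), TTNCNNAA (C/EBP), GAGGAA (PU.1 core), TATAAA (the TATA box) or TGACGTCA (CRE).
Il1rn, chr2:24336610-24336859, plus strand: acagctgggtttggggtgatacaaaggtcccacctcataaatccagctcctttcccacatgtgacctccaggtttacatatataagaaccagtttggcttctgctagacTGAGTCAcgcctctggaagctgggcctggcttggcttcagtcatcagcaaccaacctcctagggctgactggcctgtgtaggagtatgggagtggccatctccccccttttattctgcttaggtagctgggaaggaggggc
Il1rn, chr2:24345041-24345290, plus strand: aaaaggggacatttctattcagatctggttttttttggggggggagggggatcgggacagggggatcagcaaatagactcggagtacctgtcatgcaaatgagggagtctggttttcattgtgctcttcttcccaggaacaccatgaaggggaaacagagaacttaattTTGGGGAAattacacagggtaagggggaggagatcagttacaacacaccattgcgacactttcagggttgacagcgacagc
Pycard, chr7:127993868-127994117, minus strand: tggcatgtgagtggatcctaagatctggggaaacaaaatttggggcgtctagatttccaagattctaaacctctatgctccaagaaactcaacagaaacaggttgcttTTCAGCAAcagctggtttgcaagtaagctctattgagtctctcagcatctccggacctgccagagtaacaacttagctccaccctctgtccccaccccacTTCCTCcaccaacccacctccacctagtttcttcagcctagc
Casp1, chr9:5298267-5298516, plus strand: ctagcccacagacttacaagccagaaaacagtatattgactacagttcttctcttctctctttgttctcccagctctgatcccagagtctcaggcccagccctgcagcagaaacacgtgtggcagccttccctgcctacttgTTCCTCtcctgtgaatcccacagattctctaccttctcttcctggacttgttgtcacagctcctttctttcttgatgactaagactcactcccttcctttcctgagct
Il1b, chr2:129371140-129371389, minus strand: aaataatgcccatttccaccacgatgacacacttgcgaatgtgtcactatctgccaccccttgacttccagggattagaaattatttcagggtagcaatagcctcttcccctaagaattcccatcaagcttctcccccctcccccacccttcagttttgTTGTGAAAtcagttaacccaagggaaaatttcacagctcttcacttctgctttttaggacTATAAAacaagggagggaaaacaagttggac

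An entry was found for 9 of the 10 genes, with 12 starts in all, and for none of Il10. The C/EBP letters were in 8 of the 12 windows, from 6 genes and with 1 site shared by overlapping windows of Il1rn, against 36.8% of the windows of 32851 starts of all genes. The PU.1 core was in 4 (23.3% of all windows), the NF-kappaB consensus in 3, those of Il6, Tgfb1 and Nlrp3 (7.25%), the TATA box in 3, those of Tnf, Il1b and Il18 (12.4%), AP-1 in 2, those of Il6 and Il1rn (6.75%), and CRE in none (1.55%). The match of the TATA letters in Il1b lay 31 bases before the start and that in Tnf 29 bases before it. These matches are a description of letters and were not tested for binding.

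Levels are given as log2 of the median spot intensity after quantile normalization between arrays, without background subtraction, so that the dimmest probes called well above background lie at 5.23 to 5.46, depending on the array, spots without signal can lie lower, and the changes of dim genes are understated. A probe entered the test if its signal was well above background, by the scanner software, on 6 arrays or more. Of the 17 probes 13 were tested, and 9 of the 10 genes had a tested probe, with Il10 as the exception. Each gene is counted by its brightest tested probe, and a gene is called when the Benjamini–Hochberg adjusted p of limma over all 39391 tested probes was under 0.05. The share of spots above background in this sense lay between 66.06% and 71.88% on each array, and no spot was saturated. The adipocyte markers Adipoq, Fabp4, Cidec and Plin1 were well above background on all 20 arrays. The transcripts of testis and epididymis reached a mean level of 8.73 in the highest Ref mouse, 8.69 in the highest HFoleic mouse and 7.51 in the highest HFepa mouse, against lowest values of 5.90, 5.73 and 5.63, and their part in the results was not tested.

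The high-fat diet in the control lineage was compared to the standard diet to see which of these genes respond to an obesogenic diet. In HFoleic vs. Ref, 4 of the 9 tested genes were called, or 44.4%, and all 4 were higher in HFoleic: Il1rn, Pycard, Casp1 and Tgfb1. Over all 25619 genes tested in the same way, 31.8% were called, 15.2% of them higher and 16.7% lower as shares of all genes. Il1b, Il18, Il6 and Nlrp3 had log2 differences between -0.17 and 0.08 and were not called. Tnf had 1 probe that was called and a brighter one that was not.

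The receptor antagonist Il1rn had the largest difference among the 9 genes. Its brightest probe (mm9 chr2:24206125-24206184, plus strand) had raw intensities from 29 to 50 in Ref, from 245 to 1204.5 in HFoleic and from 45 to 944 in HFepa. The normalized log2 levels were 4.84, 5.28 and 5.69 (lowest, median and highest) in Ref, 7.78, 9.32 and 10.14 in HFoleic, and 5.53, 6.54 and 9.94 in HFepa. No HFoleic mouse overlapped with the Ref mice, while the HFepa mice ran from the Ref range to the top of the HFoleic range. The difference HFoleic minus Ref was log2 3.82 ± 0.65 (SE; n = 6 and 6; limma, adjusted p = 0.000564), or 14.1-fold. The probe was well above background on 2 of the 6 Ref arrays, on all 6 HFoleic arrays and on 7 of the 8 HFepa arrays, so the size of the change depends on how the background is treated. It was log2 6.35 with the background-subtracted processed signal and 3.15 with the mean signal after normexp background correction. The mean of both Il1rn probes, which takes in the dimmer second probe, had log2 2.47. The second Il1rn probe was not well above background on any Ref array and passed the filter through the HFoleic group in which it was high. Its mean levels, given as a description only, were 5.21 in Ref, 6.34 in HFoleic and 5.65 in HFepa.

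Il1b, the cytokine that this antagonist opposes, was not called. It had log2 levels of 6.03, 6.61 and 7.82 (lowest, median and highest) in Ref, 6.29, 6.59 and 6.83 in HFoleic, and 6.20, 6.68 and 6.98 in HFepa. The 3 groups overlapped almost fully, and the highest of all mice was Ref mouse 5. HFoleic minus Ref was log2 -0.17 ± 0.21 (SE; 95% interval -0.61 to 0.26; limma, adjusted p = 0.57), so a rise above log2 0.26 lies outside the interval on this scale. Both other Il1b probes were well above background on at most 2 arrays of any group. Il18, the second substrate of caspase-1, had levels of 9.18, 9.73 and 10.06 in Ref, 9.57, 9.72 and 9.95 in HFoleic, and 9.21, 9.68 and 9.91 in HFepa. All 3 groups overlapped here too, with a difference HFoleic minus Ref of log2 0.08 ± 0.14 (95% interval -0.21 to 0.37; limma, adjusted p = 0.707).

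**Figure D1:**
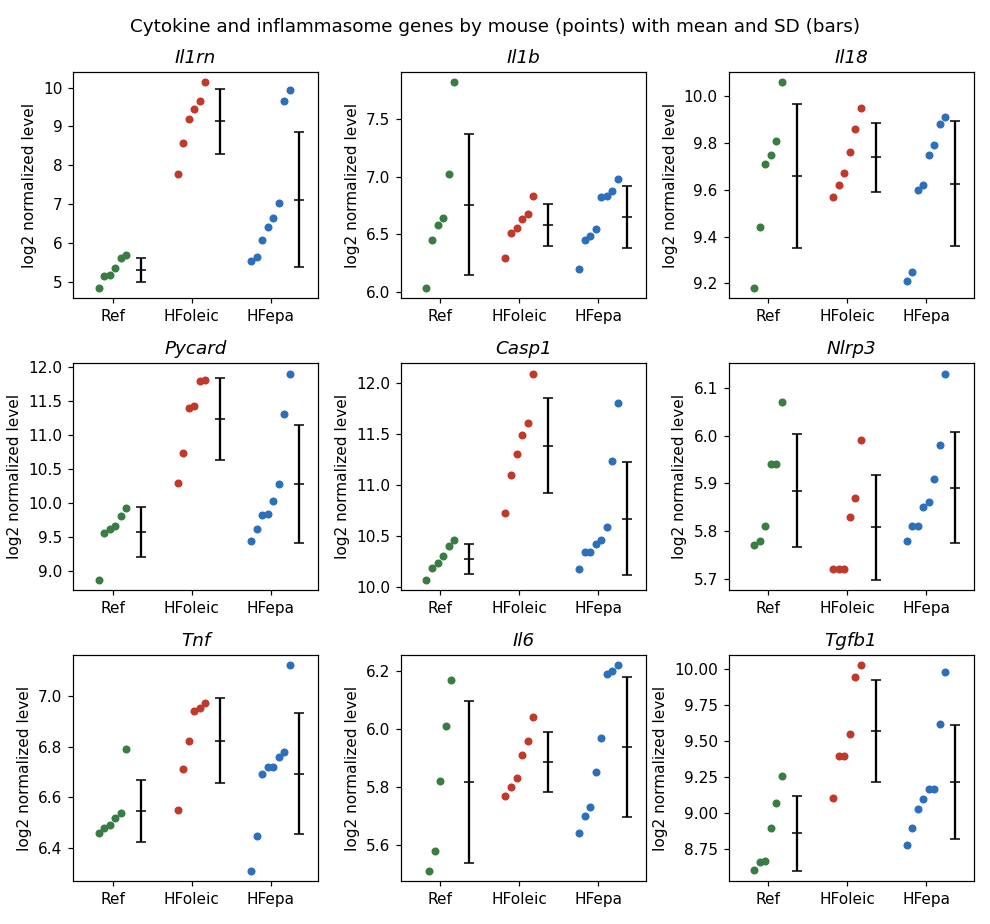
Normalized log2 level of the brightest tested probe of 9 genes (vertical axes, each panel with its own scale that does not start at 0) in Ref, HFoleic and HFepa mice. Each point is 1 mouse and the bars are the mean with the SD. For Il1rn, Pycard and Casp1 no HFoleic mouse lies within the Ref range, and 2 of the 8 HFepa mice lie apart from the other 6 and above them.

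Adaptor and protease of the inflammasome were both higher in HFoleic. Pycard had log2 levels of 8.87, 9.64 and 9.92 (lowest, median and highest) in Ref, 10.29, 11.41 and 11.80 in HFoleic, and 9.44, 9.94 and 11.90 in HFepa. HFoleic minus Ref was log2 1.67 ± 0.36 (SE; limma, adjusted p = 0.0023), or 3.18-fold. Casp1 had levels of 10.07, 10.26 and 10.46 in Ref, 10.72, 11.39 and 12.09 in HFoleic, and 10.17, 10.44 and 11.80 in HFepa. Its difference was log2 1.11 ± 0.24 (SE; limma, adjusted p = 0.0022), or 2.16-fold. In Il1rn, Pycard and Casp1 every HFoleic mouse was above every Ref mouse, a pattern that 6.92% of all tested genes had.

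The sensor Nlrp3, which recruits both, was not called. Its levels were 5.77, 5.88 and 6.07 (lowest, median and highest) in Ref, 5.72, 5.78 and 5.99 in HFoleic, and 5.78, 5.86 and 6.13 in HFepa. The groups overlapped, and HFoleic minus Ref was log2 -0.08 ± 0.07 (SE; 95% interval -0.22 to 0.07; limma, adjusted p = 0.437). The probe was well above background on all 20 arrays but lay close to it, with raw intensities from 51 to 68.5. A second probe listed as Pycard disagreed with the first: the files place it on the plus strand (mm9 chr7:135140025-135140084), the first on the minus strand (mm9 chr7:135136241-135136300). The gene lies on the minus strand, so as placed the second probe may read another transcript. It had a log2 difference of -0.30 ± 0.13 in HFoleic vs. Ref (limma, adjusted p = 0.0755). The mean of both probes had 0.68 (adjusted p = 0.0071), which may not be a measure of Pycard alone.

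Tgfb1 rose by a smaller amount. Its levels were 8.61, 8.78 and 9.26 (lowest, median and highest) in Ref, 9.11, 9.48 and 10.03 in HFoleic, and 8.78, 9.14 and 9.98 in HFepa. In HFoleic 5 of the 6 mice were above every Ref mouse, so the groups overlapped by 1 mouse. The difference was log2 0.71 ± 0.19 (SE; limma, adjusted p = 0.00766), or 1.64-fold, and the second Tgfb1 probe gave log2 0.52 ± 0.16 (limma, adjusted p = 0.0149).

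For Tnf the result depended on the probe. The brighter probe (mm9 chr17:35336967-35337026, minus strand) had log2 levels of 6.46, 6.51 and 6.79 (lowest, median and highest) in Ref, 6.55, 6.88 and 6.97 in HFoleic, and 6.31, 6.72 and 7.12 in HFepa. The Ref mouse 5 lay apart from the other Ref mice and within the HFoleic range. HFoleic minus Ref was log2 0.28 ± 0.11 (SE; limma, adjusted p = 0.0556), and without Ref mouse 5 it was 0.33 (adjusted p = 0.0318). It was also called without HFoleic mouse 1 (0.33, adjusted p = 0.0234), HFepa mouse 1 (0.28, 0.0268) or HFepa mouse 4 (0.28, 0.0334), with array weights (0.33, 0.00449) and with only both groups compared (0.28, 0.0239). As the mean of its probes Tnf had log2 0.68 (adjusted p = 0.00761), and 5 of the 9 genes were called in each of these last 3 settings. The brighter probe stayed uncalled in the other alternatives. Among them were the processed signal (log2 0.29, limma, adjusted p = 0.154), normexp (0.18, 0.121), median centring (0.21, 0.167) and the replicate block (0.24, 0.249). With 1 array left out its adjusted p ranged from 0.0234 to 0.118, and 4 of 20 fits called it. The other probe (mm9 chr17:35336795-35336854, minus strand) had levels of 5.45, 5.86 and 6.19 in Ref, 6.22, 6.98 and 7.45 in HFoleic, and 5.69, 6.16 and 7.45 in HFepa. There every HFoleic mouse was above every Ref mouse, with a difference of log2 1.08 ± 0.27 (SE; limma, adjusted p = 0.00526), or 2.11-fold. The second probe was well above background on 4 of the 6 Ref arrays and on all others. Counted by the probe with the smallest p, a choice made after seeing the data, 5 of the 9 genes were called.

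Il6 and Il10 were at or near the background. The tested Il6 probe had levels of 5.51, 5.82 and 6.17 (lowest, median and highest of 5 mice) in Ref, 5.77, 5.87 and 6.04 in HFoleic, and 5.64, 5.91 and 6.22 in HFepa. The groups overlapped, and HFoleic minus Ref was log2 0.07 ± 0.13 (SE; limma, adjusted p = 0.735). The value of Ref mouse 4 is missing from this fit, since the software marked that spot as an outlier: its raw intensity was 3794.5, against at most 83 on the other arrays. With this spot kept the difference was log2 -0.97 (limma, adjusted p = 0.351). The Il10 probe was well above background on no Ref array, on 2 of the 6 HFoleic arrays and on no HFepa array, and was not tested. Its levels without the filter were 4.94 to 5.19 in Ref, 5.08 to 5.70 in HFoleic and 5.01 to 5.51 in HFepa, and in the fit without a filter HFoleic minus Ref was log2 0.36 ± 0.10 (limma, adjusted p = 0.0166). Most of these values lie where the array gives no measure of level.

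The high-fat group of the EPA lineage was compared to Ref and to HFoleic. It differed from Ref in lineage and diet together, and from HFoleic in lineage. The 2 comparisons with Ref share the Ref mice, so their values are given side by side. In HFepa vs. Ref, 0 of the 9 tested genes were called by limma, against 2.46% of all genes, and 1 gene (Il1rn) had an unadjusted p under 0.05, against 21.5% of all genes. Il1rn was log2 1.81 ± 0.61 higher in HFepa than in Ref (limma, adjusted p = 0.103), with 6 of the 8 mice above every Ref mouse. Without HFepa mouse 3, the lowest of its group, Il1rn was called (limma, adjusted p = 0.0497), and 1 gene was then called. With the processed signal Il1rn was called too (log2 3.71, adjusted p = 0.0385). Pycard had a difference of log2 0.71 ± 0.34 (limma, adjusted p = 0.244), Casp1 of 0.40 ± 0.23 (0.33), Tgfb1 of 0.36 ± 0.18 (0.258) and Tnf of 0.15 ± 0.10 (0.433). The second probes of Tgfb1 and Tnf had log2 0.16 ± 0.15 and 0.52 ± 0.25 (limma, adjusted p = 0.58 and 0.247). Il1b, Il18, Il6 and Nlrp3 lay between log2 -0.11 and 0.12.

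In HFepa vs. HFoleic, 0 of the 9 genes were called by limma, against 0% of all genes by their brightest probe. At an unadjusted p under 0.05 there were 3 of the 9 genes, or 33.3%, against 20.8% of all genes. These were Il1rn (log2 -2.01 ± 0.61, adjusted p = 0.126), Casp1 (-0.72 ± 0.23, adjusted p = 0.129) and Pycard (-0.96 ± 0.34, adjusted p = 0.143), each lower in HFepa. Tgfb1 had a difference of log2 -0.36 ± 0.18 (limma, adjusted p = 0.259) and Tnf of -0.13 ± 0.10 (adjusted p = 0.486). Their second probes, which do not enter the count, had log2 -0.37 ± 0.15 for Tgfb1 and -0.56 ± 0.25 for Tnf. For these the unadjusted p of limma was 0.0206 and 0.0378, and the adjusted p 0.17 and 0.215. The count of called genes rested on single mice and on the weight of each array. Without HFepa mouse 1, Il1rn, Casp1 and Pycard were all called (Il1rn log2 -2.41, limma, adjusted p = 0.0271). Without HFoleic mouse 1, Il1rn and Casp1 were called (adjusted p = 0.0483 and 0.0439), and with array weights 3 genes were called.

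**Figure D2:**
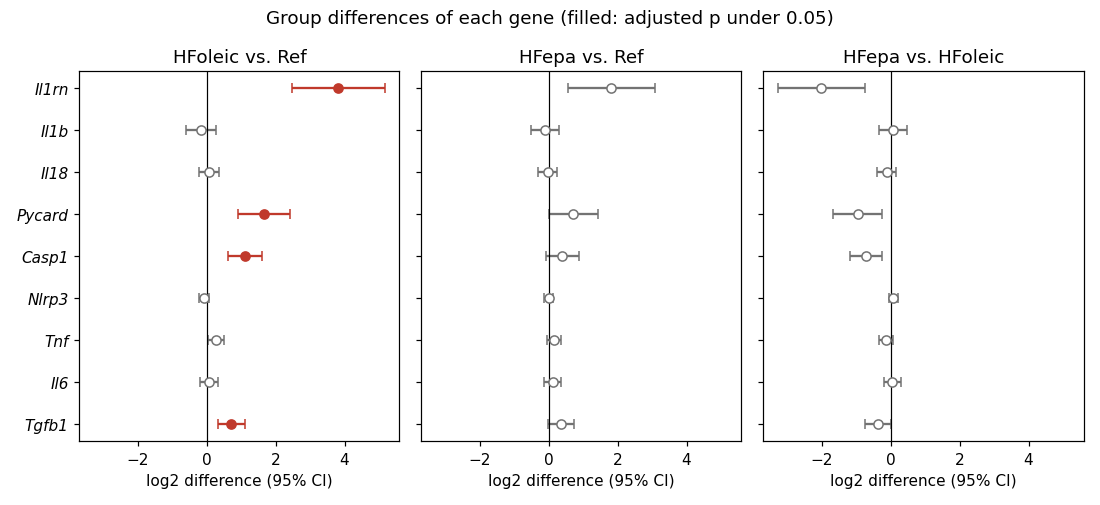
Log2 difference between groups (horizontal axis, first group minus second) with its 95% confidence interval for 9 genes in the 3 comparisons, on 1 common scale. Filled points passed an adjusted p of 0.05 in limma. The 4 filled points, Il1rn, Pycard, Casp1 and Tgfb1, are all in HFoleic vs. Ref, where Il1rn is at 3.82.

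The HFepa group was spread over the range of the others. HFepa mice 1 and 6 had Il1rn levels of 9.94 and 9.66, and the other 6 had 5.53 to 7.03, below every HFoleic mouse. For Casp1 the same mice had 11.80 and 11.23 and the others 10.17 to 10.59, and for Pycard 11.90 and 11.30 against 9.44 to 10.28. The SD of Il1rn was thereby 1.73 in HFepa, 0.84 in HFoleic and 0.32 in Ref. In HFoleic, mouse 1 was the lowest for Il1rn (7.78), Casp1 (10.72), Pycard (10.29) and Tgfb1 (9.11). The within-slide differences HFoleic minus Ref had the same sign on all 3 slides for Il1rn (3.56, 4.72 and 3.77), Pycard (1.29, 2.56 and 1.47), Casp1 (1.17, 1.29 and 0.97) and Tgfb1 (0.88, 0.78 and 0.70), with 1 HFoleic mouse on the second slide.

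The mean level of macrophage markers moved with these genes. The macrophage list holds 14 names for 13 genes, since Emr1 is an older name of Adgre1. All 13 were on the array and well above background on all 20 arrays, so no defining marker was absent. Their mean log2 level was 11.22 to 11.71 in Ref, 11.94 to 12.90 in HFoleic and 11.12 to 12.87 in HFepa. In HFoleic vs. Ref, 9 of the 13 were called higher and 1 lower, against 15.2% and 16.7% of all genes. HFepa mice 1 and 6 had 12.87 and 12.59, and the other 6 had 11.12 to 11.88. The pan-macrophage genes Adgre1 (F4/80) and Cd68 had mean levels of 10.61 and 12.17 in Ref, 12.88 and 14.58 in HFoleic, and 11.61 and 13.37 in HFepa. Cd163, Cd14 and Mertk of the same list had lower means in HFoleic (11.71, 10.9 and 9.53) than in Ref (12.24, 11.18 and 9.62). In the list of lipid-associated macrophages 5 of 6 genes were called higher in HFoleic vs. Ref, and its mean level was 10.07 to 11.18 in Ref, 12.50 to 14.00 in HFoleic and 10.63 to 14.41 in HFepa. The part of these cells in the results was not tested, and in whole tissue more cells of a type and more RNA per cell cannot be told apart.

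Across the 20 arrays, which share groups and slides, the Pearson correlation with the mean macrophage level was 0.939 for Il1rn, 0.939 for Pycard, 0.934 for Casp1, 0.863 for Tgfb1 and 0.735 for Tnf. After the group means were subtracted it was 0.898, 0.881, 0.869, 0.762 and 0.616. It was 0.026 for Il1b, -0.003 for Nlrp3, -0.152 for Il6 (19 arrays) and 0.33 for Il18. Relative to the macrophage list on the same array, HFoleic minus Ref was log2 0.16 for Casp1, -0.23 for Tgfb1, 0.72 for Pycard and 2.87 for Il1rn, whose probe was well above background on 2 of the 6 Ref arrays. It was -0.67 for the brighter Tnf probe, -0.87 for Il18, -0.91 for Il6, -1.02 for Nlrp3 and -1.12 for Il1b. The other Tnf probe, with its own difference of log2 1.08 ± 0.27, was not set against the list. The probes of Tnf, Il6, Nlrp3 and Il1b were dim, so their own changes may be understated. All these relative values depend on the choice of list: its mean was 11.56 in Ref and 12.5 in HFoleic, against 12.17 and 14.58 for Cd68 alone.

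**Figure D3:**
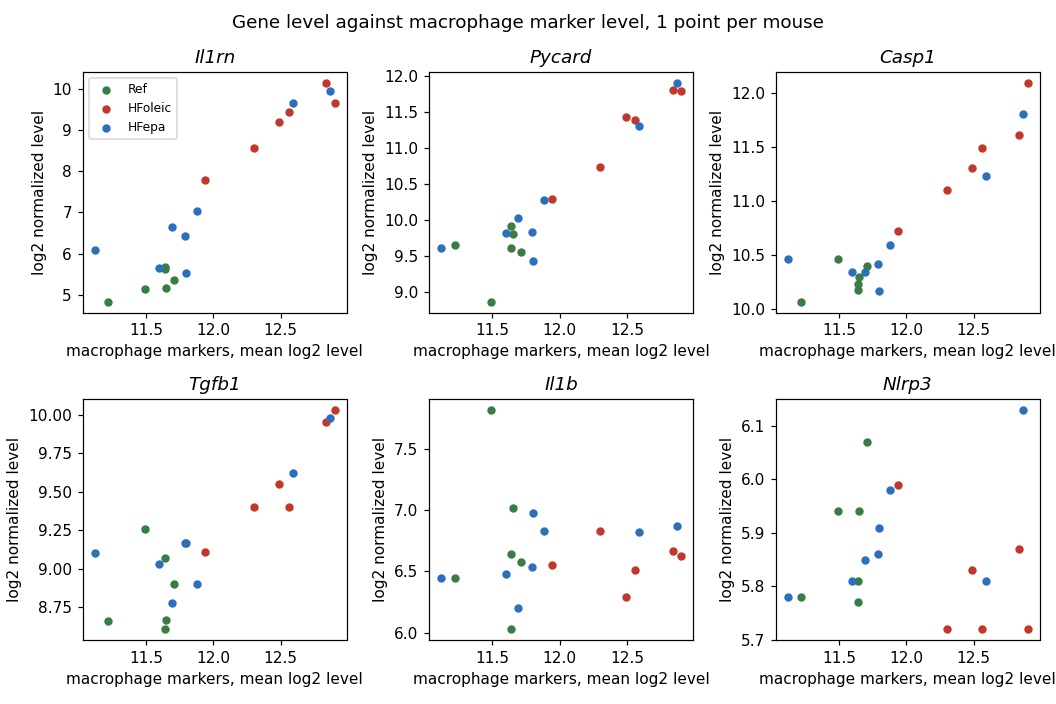
Normalized log2 level of 6 genes (vertical axes, each with its own scale) against the mean log2 level of 13 macrophage markers (horizontal axes), with 1 point per mouse coloured by group. The points of Il1rn, Pycard and Casp1 lie along a line on which 2 HFepa mice sit among the HFoleic mice, and those of Il1b and Nlrp3 show no such line.

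Among themselves, Il1rn, Pycard and Casp1 correlated at 0.934 to 0.962 over the 20 arrays, whereas Il1b correlated at -0.086 with Il1rn, -0.169 with Pycard and 0.049 with Casp1. The genes most like Il1rn over all arrays were Atp6v0d2, a proton pump subunit (r = 0.994), Lgals3, galectin-3 (0.994), and Ctss, the lysosomal protease cathepsin S (0.993). Those most like Pycard were 5730416F02Rik (0.991), the adenylate cyclase Adcy7 (0.990) and the actin-capping Capg (0.990). Those most like Casp1 were the inhibitory receptor Lair1 (0.979), the complement receptor C3ar1 (0.978) and Cd180 (0.978). The closest genes to Il1b were Socs3, a feedback inhibitor of cytokine signalling (0.82), Nolc1 (0.817) and Klrb1b (0.813), and to Tnf they were Ywhah (0.905), Galnt7 (0.899) and Gm19510 (0.898). Tgfb1 was closest to an unnamed transcript on chromosome X (0.952), Nagpa (0.951) and Sphk2 (0.947), and Il18 to the complement gene C4b (0.82), Slc25a12 (0.818) and Epb4.1l3 (0.811). For Il6 and Nlrp3 no gene passed 0.765, the value of Il6 with Rgs16.

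Genes of the same pathways were described from 8 lists, which also hold the 9 tested genes above. Over the lists, 106 genes were tested, of which 30 were called higher and 19 lower in HFoleic vs. Ref, or 46.2% in all, against the 31.8% of all genes. The 30 include the 4 genes already described as called. The median log2 difference of all genes was -0.04. For the counts of each list below, 15.2% of all genes were called higher and 16.7% lower in this comparison.

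In the inflammasome list 11 of 18 tested genes were higher and 2 were lower, with a median of log2 0.49. Besides Pycard and Casp1, the smallest p-values belonged to Mefv, which encodes the sensor pyrin (log2 1.06 ± 0.21, adjusted p = 0.0013), Nlrp1b (1.11 ± 0.22, 0.00137) and Naip2 (1.34 ± 0.28, 0.00181). P2rx7, the ATP-gated channel upstream of NLRP3, the sensors Nlrc4 and Aim2, and Gsdmd, the pore-forming target of caspase-1, were higher by log2 0.89, 0.72, 0.55 and 0.43. The 2 lower genes were Naip5 (log2 -0.36 ± 0.08) and Txnip (-0.57 ± 0.13), which binds thioredoxin. The Naip and Nlrp1 genes are close copies of one another, so the probe of 1 copy may read the RNA of another. In HFepa vs. Ref, Mefv and Nlrp1b had log2 0.73 and 0.70 (limma, adjusted p = 0.0532 and 0.0693).

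**Figure D4:**
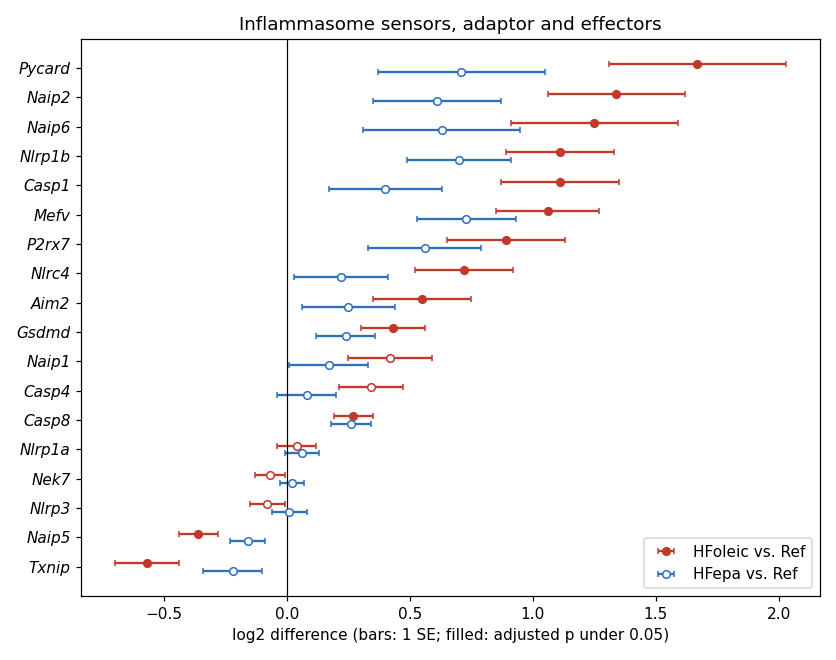
Log2 difference from Ref (horizontal axis, bars of 1 SE) of the 18 tested genes of the inflammasome list, for HFoleic and for HFepa, which share the Ref mice. Filled points passed an adjusted p of 0.05 in limma: 13 in HFoleic vs. Ref and none in HFepa vs. Ref.

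In the IL-1 list of ligands Il1rn alone was called of 4 tested genes, Il33 had log2 0.06 ± 0.32, and the transcripts Il1a and Il1f10 did not pass the filter. Of 15 receptors and adaptors for IL-1 and IL-18, 3 were higher and 2 lower, beside 15.2% and 16.7% of all genes. The decoy receptor Il1r2 was higher by log2 0.97 ± 0.27 (limma, adjusted p = 0.0106), the accessory chain Il1rap by 0.37 ± 0.10 (0.00684) and the IL-33 receptor Il1rl1 by 0.63 ± 0.17 (0.00961). The signal adaptors Traf6 and Irak2 were lower, with log2 -0.61 ± 0.09 (0.000294) and -0.42 ± 0.10 (0.0051). The signalling receptor Il1r1 had log2 -0.10 ± 0.13 and was not called.

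In the TNF list 8 of 14 genes were higher and 2 lower, with a median of log2 0.29. Tnfrsf1b, the second TNF receptor, was higher by log2 1.24 ± 0.28 (limma, adjusted p = 0.00264), Adam17, the enzyme that sheds TNF from the membrane, by 0.61 ± 0.15 (0.00453), and Tnip1, a partner of the inhibitor A20, by 0.48 ± 0.09 (0.000727). Tnfaip3, which encodes A20, was higher by log2 0.60 ± 0.15. Lymphotoxin Lta was lower (log2 -0.43 ± 0.10, adjusted p = 0.00257). In the NF-kappaB list 3 of 13 genes were higher and 4 lower, the inhibitor Nfkbie (0.75 ± 0.16) and the subunit Nfkb2 (0.43 ± 0.10) in 1 direction and the inhibitor Nfkbia (-0.48 ± 0.11) and the kinase Ikbkb (-0.21 ± 0.05) in the other. Without a filter on dim probes 3 were higher and 2 lower.

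The lists around IL-6, IL-10 and TGF-beta had medians of log2 -0.10, -0.16 and -0.13. Of their tested genes 4 of 14, 3 of 7 and 6 of 21 were called in HFoleic vs. Ref, against 31.8% of all genes. Of 14 genes of the IL-6 list, the receptor chain Lifr was higher (log2 0.37 ± 0.09), and Cntf (-0.77 ± 0.14), the transcription factor Stat3 (-0.50 ± 0.13) and Clcf1 (-0.32 ± 0.11) were lower. Cntf was also the only gene of all 8 lists called in HFepa vs. Ref (log2 -0.52 ± 0.13, limma, adjusted p = 0.0385), a call lost when no filter on dim probes was set. This is 0.943% of the 106 tested genes, against 2.46% of all genes. In that comparison 26 of the 106 had an unadjusted p under 0.05, or 24.5%, against 21.5% of all genes. Of 7 tested genes of the IL-10 list, both receptor chains were higher, Il10ra by log2 0.88 ± 0.22 (adjusted p = 0.0049) and Il10rb by 0.67 ± 0.14 (0.00184), and Il22ra2, a soluble decoy receptor of IL-22, was lower (-1.36 ± 0.32, 0.00395). Of 21 genes of the TGF-beta list, Tgfb1 alone was higher and 5 were lower, among them the feedback inhibitor Smad7 (log2 -0.86 ± 0.16, adjusted p = 0.000969), the common mediator Smad4 (-0.29 ± 0.07, 0.00314) and Lrrc32, which holds latent TGF-beta at the cell surface (-0.86 ± 0.22, 0.00683). In HFepa vs. HFoleic, 0 of the 106 genes were called by limma, against 0% of all genes. An unadjusted p under 0.05 was found for 29 of them, or 27.4%, against 20.8% of all genes.

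**Figure D5:**
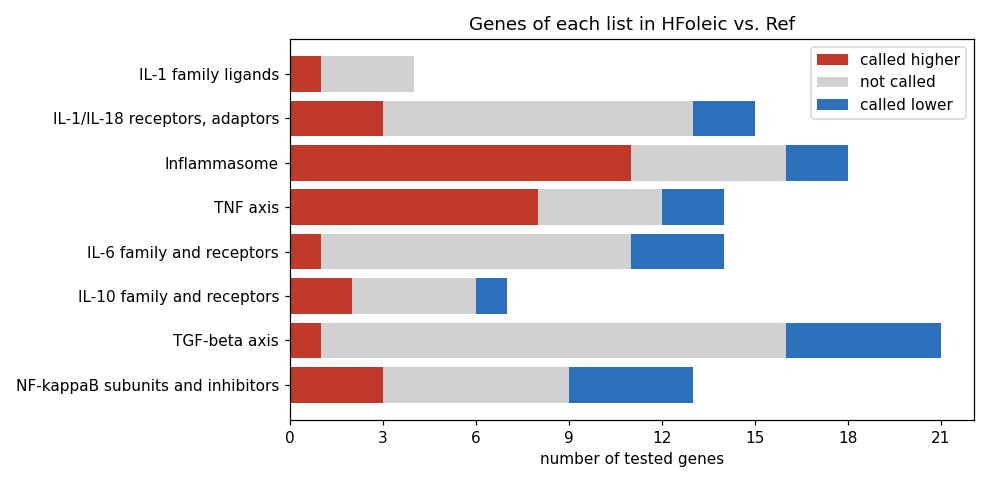
Number of tested genes (horizontal axis) of each of 8 lists that were called higher, not called or called lower in HFoleic vs. Ref at an adjusted p of 0.05. The inflammasome list has 11 of 18 genes higher and the TGF-beta list 1 of 21, beside 15.2% of all genes.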

How the data were processed

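Total RNA of 20 mice was labelled with Cy3 and hybridized to Agilent mouse arrays, 1 array per mouse, so that the replicates are separate animals. The authors read the scans with Agilent Feature Extraction 10.10.1.1 (per the file headers), and the median, mean and background intensities are deposited on a linear scale without normalization. The processed intensities deposited in the same files were background-subtracted by that software. A deposited log2 table of the authors was made from the filtered median signal by quantile normalization, whose filter rule is not given in the sources used here.

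The software was limma 3.58.1 under R 4.3.3, and matplotlib 3.10.9 for plots. Control spots were left out and spots marked as non-uniform or outliers were missing on that array. Probes well above background on at least 6 arrays were kept (39391 of 56605), log2 median intensities were quantile normalized, and spots of a probe were averaged. With lmFit and eBayes, the means of the 3 groups were estimated from all 20 arrays together. Adjusted p-values are Benjamini–Hochberg values over all tested probes, with intervals at 95%. The model fit was tried on simulated levels with known changes, while the filter, the normalization and the averaging of spots were not. Groups come from the labels, the slide from the array barcode, and no column of the deposited table was without a sample.

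The genes and lists were chosen with earlier results of these data known, so no list is independent evidence. All 10 genes are named. In each list up to 4 genes with the smallest p in HFoleic vs. Ref are named, with a few others given for their role and chosen after their values were seen, and for each tested gene the 3 most correlated genes. Marker lists for T, NK, mast, dendritic, endothelial, mesothelial, stromal, neutrophil and liver cells were also computed and are given under the other observations, and 1 further list is not reported here.
Alternatives replaced the signal (processed signal scaled to its 75th percentile, or mean signal after normexp with offset 50), the scaling (median centring, or the deposited log2 table), the filter (none, or every array of a group), the treatment of marked spots (kept), the model (a block for slide or for replicate number, weights for arrays, a trend with robust eBayes, or only both groups compared), the summary of a gene (mean of its probes), or left out 1 array at a time. Promoter windows are RefSeq sequences of GRCm38.p6, whereas probes are placed on mm9 by the files.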

Additional observations from a re-analysis of the deposited data

Results flagged for a closer look

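Pycard in Ref mouse 5 had a log2 level of 8.87 and lay apart from the other 5 Ref mice, which had 9.56 to 9.92. The brighter Tnf probe had a log2 level of 6.79 in the same mouse, apart from the other Ref mice at 6.46 to 6.54. They were the 2 groups so marked of the 39 groups of mice looked at, and chance marks about 1 in 20. Ref mouse 5 also had the highest Il1b level of all mice (7.82).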

How the results depend on the processing

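In HFoleic vs. Ref, the calls of Il1rn, Pycard and Casp1 and their direction held under every alternative with a test, and that of Tgfb1 under all but the replicate block (log2 0.66, adjusted p = 0.0671). The number of the 9 genes called with 1 array left out ranged from 4 to 5 in HFoleic vs. Ref, from 0 to 1 in HFepa vs. Ref and from 0 to 3 in HFepa vs. HFoleic. It was 1 in HFepa vs. Ref with the processed signal and 3 in HFepa vs. HFoleic with array weights. Directions turned only for genes that were not called. Il6 in HFoleic vs. Ref had log2 -0.06 with median centring, -0.98 in the deposited table and -0.97 with marked spots kept, and in HFepa vs. Ref -0.92 in both of the latter, which hold the spot of Ref mouse 4. In HFepa vs. Ref, Nlrp3 had -0.06 with median centring, -0.01 with the replicate block and -0.02 with array weights, and Il18 had 0.00 with the replicate block. With 1 array left out, Il18 ranged from -0.02 to 0.16, Il1b from -0.32 to 0.04 and Il6 from -0.01 to 0.16 in HFoleic vs. Ref, and Il18 from -0.13 to 0.05, Il1b from -0.25 to 0.10 and Nlrp3 from -0.03 to 0.04 in HFepa vs. Ref. The cause was not tested.

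Over all probes, HFoleic vs. Ref called 12147, or 7872 with the replicate block. HFepa vs. Ref called 892, but 582 with median centring, 583 without a filter, 25 with the replicate block, 1454 with array weights, 140 with the compared groups only and 130 to 2504 with 1 array left out. HFepa vs. HFoleic called 1, but 4304 with array weights, 1294 with a block for the slide, 0 with the processed signal, normexp, median centring, the replicate block or the compared groups only, and 0 to 2866 with 1 array left out. The replicate numbers were not used as pairs in the main fit, since the study's methods name no such block. For mice of the same number, the deviations from the group means correlated at r from -0.474 to 0.141 (4 pairs), -0.435 to 0.148 (6 pairs) and -0.587 to 0.559 (6 pairs) in the 3 comparisons. The replicate block called 3, 0 and 0 of the 9 genes in the 3 comparisons. Levels of Il6, Il10, Nlrp3 and Il1rn in Ref lay near the background, which limits their folds, and the number of arrays limits the precision of all.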

Other observations

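Markers of cell types other than macrophages were called as follows, beside 15.2% of all genes called higher and 16.7% called lower in HFoleic vs. Ref. Of the dendritic cell list 3 of 4 tested genes were called higher and 1 lower in HFoleic vs. Ref, and its mean log2 level was 7.69 to 8.29 in Ref, 8.36 to 8.57 in HFoleic and 7.91 to 8.67 in HFepa. Of the NK cell list 3 of 5 were higher, with a mean of 6.69 ± 0.16 (SD) in Ref, 7.11 ± 0.22 in HFoleic and 6.88 ± 0.14 in HFepa. Of the stromal list (fibroblasts and adipose stem cells) 2 of 8 were higher, with means of 12.39, 12.73 and 12.50. The neutrophil list had 1 gene higher and 1 lower of 6. The T cell, endothelial, mesothelial and liver lists had no gene called in HFoleic vs. Ref by limma (unadjusted p under 0.05 for the mesothelial gene Lrrn4 alone, 0.0438), and the mast cell list 1 gene lower of 7. The adipocyte list had 4 of 8 genes lower, with a mean of 17.28 ± 0.08 in Ref, 16.89 ± 0.23 in HFoleic and 17.10 ± 0.19 in HFepa. Of the testis and epididymis list 1 of 5 tested genes was lower.

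Among the neutrophil genes, S100a8 had a mean log2 level of 9.53 in Ref, 11.99 in HFoleic and 10.63 in HFepa (HFoleic minus Ref 2.46 ± 0.53 SE, limma, adjusted p = 0.00215). S100a9, whose protein pairs with that of S100a8, had 8.22, 7.78 and 8.00 (-0.44 ± 0.27, adjusted p = 0.229).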
